A study of Mus musculus with 177 samples.

Results

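The netrins and their receptors described here are 8 genes: the secreted ligands Ntn1 and Ntn4, the receptors Dcc and Neo1, and the receptors Unc5a, Unc5b, Unc5c and Unc5d. They are 8 of 19937 genes measured by array in 3 organs (lung, brain and eye) of mice in their first days of life. Each member had at least 1 probe set annotated to it alone, 9 probe sets in all, and where a gene had several the one with the highest mean in a tissue was used. The family was chosen by its lung values in the comparison of hypoxia with normoxia, so the members' lung values after hypoxia are given as a description, with no test.

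Netrins are secreted proteins related to laminins that guide growing axons and also act on blood vessels and branching epithelia. Dcc and Neo1 (neogenin) are transmembrane receptors through which netrin-1 can attract, while the Unc5 proteins mediate repulsion and carry a death domain inside the cell. Unc5b is known from endothelial cells, and netrin-4 is a component of basement membranes, including those of vessels.

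The animals were C57BL/6 mice at postnatal day 7, with no transgene or mutation named. In the groups H21, H40, H60 and H100 they breathed gas with an oxygen fraction of 0.08 for 120 min and then 21, 40, 60 or 100% oxygen for 30 min. The groups N100 and N21 had air in place of the low-oxygen gas, followed by 100 or 21% oxygen for 30 min. All 6 groups then spent 150 min in air before the organs were taken. The design text counts 62 randomized mice, and each array of a group is taken as a separate animal. The labels do not tie a lung, a brain and an eye array to the same animal, and their extraction protocol describes a Ficoll gradient and a kit for blood, whereas the design names solid tissue.

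Of 177 arrays, 61 were labelled lung, 59 brain and 57 eye. The profile of 3 of them matched another tissue better than their own. The array labelled lung H40 replicate 10 had its highest correlation with brain arrays (r = 0.981, and 0.875 with lung arrays). That labelled brain H40 replicate 7 was closest to eye (0.945, and 0.888 with brain), and that labelled eye H40 replicate 9 to lung (0.954, and 0.907 with eye). These 3 arrays were left out, which left 41 hypoxia and 19 normoxia lungs, 40 and 18 brains, and 38 and 18 eyes. For counts of calls that moved by over 1.5 times, or of members that were called, the value with them is given beside the count. On the remaining arrays the mean log2 value over surfactant and other type 2 alveolar markers was 11.23 to 11.79 in lung, over neuronal markers 11.27 to 11.78 in brain and over lens markers 12.65 to 13.45 in eye. All values are log2 values from the authors' RMA processing, in which 1 unit is a doubling of signal. The median array value differed between tissues (6.25 in lung, 6.07 in brain and 6.35 in eye). Levels are not ranked between tissues or between genes.

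Promoters of the 2 members whose lung values stood farthest apart between hypoxia and normoxia, Unc5c and Ntn4, and of Unc5b, whose values moved with those of Unc5c from animal to animal, carry the results that follow. The sequences cover the 250 bases before the annotated start, 5′ to 3′ on the gene's strand, from RefSeq on GRCm38.p6. The Unc5c window is chr3:141465314-141465563 on the plus strand, the Ntn4 window chr10:93640799-93641048 on the plus strand and the Unc5b window chr10:60831582-60831831 on the minus strand. Capitals mark matches to ACGTG or GCGTG, the core letters bound by hypoxia-inducible factors, searched on both strands (CACGT or CACGC on the other).
Unc5c: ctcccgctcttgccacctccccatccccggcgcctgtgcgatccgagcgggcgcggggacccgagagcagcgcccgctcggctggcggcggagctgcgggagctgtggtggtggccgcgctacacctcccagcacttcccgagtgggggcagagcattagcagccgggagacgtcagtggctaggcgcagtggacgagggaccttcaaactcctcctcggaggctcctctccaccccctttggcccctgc
Ntn4: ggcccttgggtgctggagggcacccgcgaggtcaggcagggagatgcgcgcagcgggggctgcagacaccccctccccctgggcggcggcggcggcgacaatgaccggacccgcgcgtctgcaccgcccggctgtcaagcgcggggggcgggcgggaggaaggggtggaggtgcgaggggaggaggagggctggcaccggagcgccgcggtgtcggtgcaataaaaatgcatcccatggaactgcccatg
Unc5b: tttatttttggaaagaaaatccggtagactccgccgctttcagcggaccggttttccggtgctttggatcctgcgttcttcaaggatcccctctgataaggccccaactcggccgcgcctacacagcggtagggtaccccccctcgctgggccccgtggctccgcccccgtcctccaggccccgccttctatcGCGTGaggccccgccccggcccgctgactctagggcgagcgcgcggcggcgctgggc
Neither the Unc5c nor the Ntn4 window held either word, while the Unc5b window held GCGTG 1 time, 57 bases before the start. Promoters of 5 members were searched, and those of Unc5d, Dcc and Ntn1 were not. Among the 5, Neo1 held GCGTG 2 times and Unc5a held neither word. Of 32851 mouse promoters of this length, 16.6% held ACGTG, 28.2% held GCGTG and 38.6% held at least 1 of them. These matches are letters in a window, not measured binding.

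In lung, the ligand Ntn4 was higher after hypoxia and the receptor Unc5c was lower, while the other 6 members differed by 0.13 or less on the log2 scale. Ntn4 averaged 8.04 ± 0.26 in hypoxia lungs and 7.73 ± 0.23 in normoxia lungs (log2, SD, n = 41 and 19). Unc5c averaged 8.22 ± 0.42 in hypoxia lungs and 8.79 ± 0.34 in normoxia lungs. In the limma fit of all genes, 331 of 19937 genes (1.66%) passed a Benjamini-Hochberg adjusted p of 0.05 in this comparison, and 2 of the 8 members, Unc5c and Ntn4, were among them. With the lung-labelled array of brain profile included, 95 genes passed and Unc5c was the 1 member among them. Since this comparison was used in choosing the family, nothing is read from these counts. In whole tissue, fewer cells of a type and less RNA per cell cannot be told apart.

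**Figure D1:**
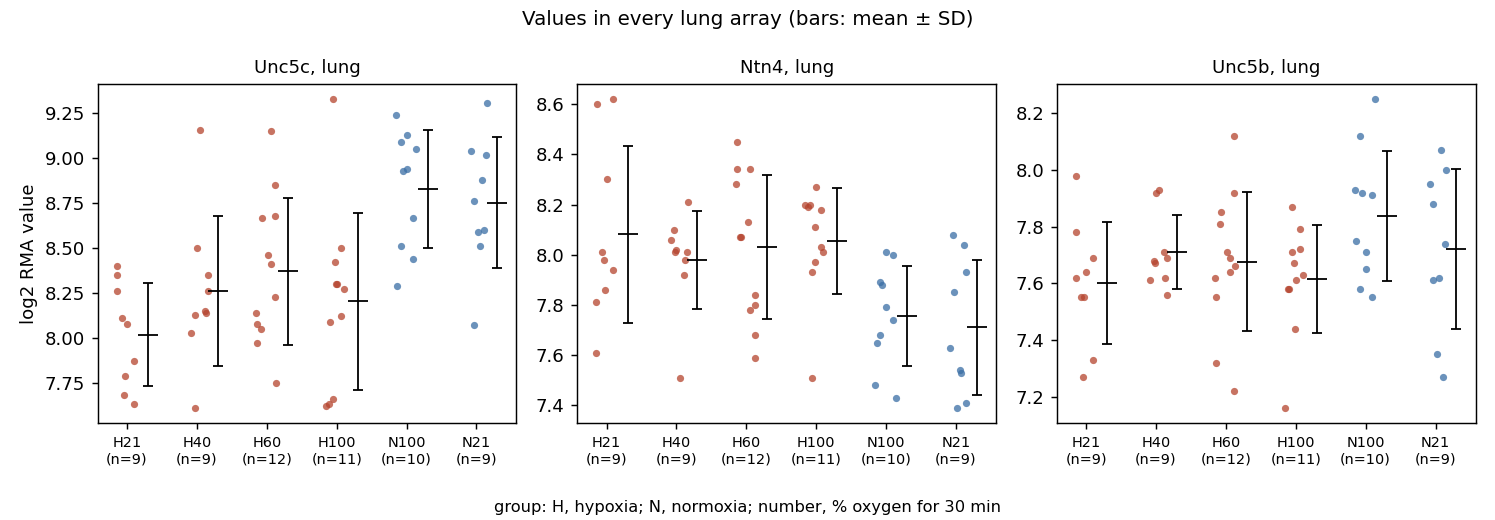
Log2 RMA values (vertical axis) of Unc5c, Ntn4 and Unc5b in every lung array that was used, by group, with hypoxia groups in red, normoxia groups in blue and bars for the group mean ± SD. Group medians of Unc5c lie between 8.08 and 8.32 in the hypoxia groups, against 8.93 in N100 and 8.76 in N21, and single arrays of the groups overlap.

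Among the ligands in lung, Ntn4 ranged from 7.61 over a median of 7.98 to 8.62 in H21 and from 7.51 over 8.01 to 8.21 in H40. It ranged from 7.59 over 8.07 to 8.45 in H60 and from 7.51 over 8.11 to 8.27 in H100. In the groups without hypoxia it ranged from 7.43 over 7.77 to 8.01 in N100 and from 7.39 over 7.63 to 8.08 in N21. All 4 hypoxia medians thus lay above both normoxia medians, and the groups overlapped. Of 41 hypoxia lungs, 36 lay above the normoxia median and 16 above the highest normoxia lung. The hypoxia minus normoxia difference was 0.30 ± 0.07 (log2, SE), a 1.23-fold level. Against N21 it was 0.37 ± 0.12 for H21, 0.27 ± 0.12 for H40, 0.32 ± 0.11 for H60 and 0.34 ± 0.11 for H100, and these 4 differences share the N21 lungs. H100 minus N100 was 0.30 ± 0.11. Ntn1, the netrin best known from axon guidance, ranged from 7.56 over a median of 7.81 to 8.12 in hypoxia lungs, against 7.45 over 7.75 to 8.04 in normoxia lungs. Its difference was 0.06 ± 0.04.

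Among the receptors in lung, Unc5c ranged from 7.63 over a median of 8.08 to 8.40 in H21 and from 7.61 over 8.15 to 9.16 in H40. It ranged from 7.75 over 8.32 to 9.15 in H60 and from 7.62 over 8.27 to 9.33 in H100. In the groups without hypoxia it ranged from 8.29 over 8.93 to 9.24 in N100 and from 8.07 over 8.76 to 9.31 in N21. The highest lung of H40, of H60 and of H100 lay above both normoxia medians, and the highest lung of H21 below them. Of 41 hypoxia lungs, 38 lay below the normoxia median and 12 below the lowest normoxia lung, while 18 of 19 normoxia lungs lay above the hypoxia median. The hypoxia minus normoxia difference was -0.58 ± 0.11 (log2, SE), which is 67.0% of the normoxia level.

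Against N21, the Unc5c difference was -0.73 ± 0.18 for H21, -0.49 ± 0.18 for H40, -0.38 ± 0.17 for H60 and -0.55 ± 0.17 for H100. H100 minus N100, 2 groups with the same oxygen after the first phase, gave -0.62 ± 0.17. In these separate comparisons 0 of 8 members passed, from which nothing is read either. The calls over all genes were 0.0502% for H21, 0.00502% for H40, 0% for H60 and 0.0201% for H100 against N21, and 0.105% for H100 against N100. With the array of brain profile included, 3 genes were called for H21 (10 without it), 0 for H40 (1 without it) and 0 for H100 (4 without it) against N21, and 5 for H100 against N100 (21 without it). With each lung left out in turn, the Unc5c difference ran from -0.82 to -0.66 for H21 minus N21 and from -0.74 to -0.57 for H100 minus N100. Lung H100 replicate 6 had the highest Unc5c of all (9.33), and N21 replicate 2 the lowest of the normoxia lungs (8.07).

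Unc5b ranged from 7.16 over a median of 7.66 to 8.12 in hypoxia lungs, against 7.27 over 7.75 to 8.25 in normoxia lungs, with a difference of -0.13 ± 0.06. Of 41 hypoxia lungs 31 lay below the normoxia median of Unc5b and 2 below its lowest normoxia lung. Unc5a ranged from 6.11 over 6.49 to 6.97 in hypoxia lungs, against 6.37 over 6.63 to 6.82 in normoxia lungs (-0.09 ± 0.05). Unc5d ranged from 5.48 over 5.90 to 6.16 in hypoxia lungs, against 5.55 over 5.93 to 6.19 in normoxia lungs (-0.05 ± 0.04). All 4 Unc5 differences were negative, and hypoxia and normoxia lungs overlapped in each. Of 19 normoxia lungs, 16 lay above the hypoxia median of Unc5a and 12 above that of Unc5d. The second probe set of Unc5d, which was not the brighter one in lung, gave 0.02 ± 0.06. Dcc ranged from 4.52 over 5.17 to 5.54 in hypoxia lungs, against 4.97 over 5.11 to 5.50 in normoxia lungs (0.01 ± 0.05). Neo1, its close relative, ranged from 9.19 over 9.88 to 10.24 in hypoxia lungs, against 9.59 over 9.93 to 10.11 in normoxia lungs (-0.05 ± 0.05). The median of the 8 members' differences was -0.05, and that of all genes 0.009.

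The amount of oxygen given during reoxygenation can be tested in lung without the hypoxia contrast. No member was called between H100 and H21, along the slope over 21 to 100% oxygen in the hypoxia groups, between N100 and N21, or in the interaction of hypoxia with 100% oxygen, with limma adjusted p of 1 throughout and no unadjusted p under 0.05. Of all genes, too, 0% were called in each of these 4 comparisons. An unadjusted limma p under 0.05 was found for 1.53% (H100 minus H21) to 2.4% (interaction) of all genes. For Unc5c, H100 minus H21 was 0.18 ± 0.17 (95% interval -0.16 to 0.53) and the slope 0.14 ± 0.16 (-0.18 to 0.47). N100 minus N21 was 0.08 ± 0.17 for Unc5c (-0.27 to 0.42) and 0.04 ± 0.12 for Ntn4 (-0.19 to 0.28). The Ntn4 slope was 0.00 ± 0.11 (-0.21 to 0.22). The Unc5c intervals contain increases with 100% oxygen of up to 0.53 after hypoxia and 0.42 without it.

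The order of the sample records falls into a first run sorted by group and later runs with few arrays of each group. The labels do not call these batches. In the first run, Unc5c averaged 8.30 in 25 hypoxia lungs and 8.82 in 13 normoxia lungs. In the later runs it averaged 8.10 in 16 hypoxia lungs and 8.73 in 6 normoxia lungs. The hypoxia minus normoxia difference of Unc5c was -0.52 ± 0.13 within the first run, -0.60 ± 0.16 within the later runs and -0.57 ± 0.10 with the run as a block. For Ntn4 these were 0.25 ± 0.09, 0.41 ± 0.08 and 0.31 ± 0.06. With the 3 arrays of another tissue included, the Unc5c difference was -0.57 ± 0.11 and that of Ntn4 0.28 ± 0.08.

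Markers of cell types were looked at beside Unc5c and Ntn4 in lung, where 1.66% of all genes were called. The mean over 8 fibroblast and mesenchyme markers ranged from 9.83 to 11.38 in hypoxia lungs and from 10.02 to 11.30 in normoxia lungs, with 0 of 8 markers called. For 8 endothelial markers the ranges were 10.09 to 10.54 and 10.04 to 10.56, also with 0 called. Among smooth muscle and pericyte markers 2 of 8 were higher after hypoxia, Cspg4 (0.18) and Tagln (0.22), with a list median of 0.16. The mean over these 8 markers ranged from 9.31 to 9.88 in hypoxia lungs and from 9.34 to 9.82 in normoxia lungs. By group it averaged 9.69 in H21, 9.72 in H40, 9.65 in H60 and 9.66 in H100, against 9.54 in both N100 and N21. Brown fat markers, which should be low in lung, ranged from 4.97 to 9.05 in hypoxia lungs and from 5.31 to 8.25 in normoxia lungs. Their median difference was -0.41, with 0 of 4 called. The mean over 6 skeletal muscle markers ranged from 6.06 to 10.03 in hypoxia lungs and from 6.02 to 10.81 in normoxia lungs. Of 7 neuronal markers 1, Stmn2, was higher (0.30). The part of these cells in the Unc5c and Ntn4 differences was not tested.

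Other genes of the pathway were taken from lists. In the lung comparison, where 1.66% of all genes were called, 0 of 7 measured other netrins and netrin-like ligands and 0 of 14 other partners at the membrane were called, with 0 and 1 at an unadjusted p under 0.05. Of 22 genes downstream of netrin receptors, 1 was higher, Nck1 (0.13 ± 0.04), an adaptor that binds Dcc, and 1 was lower, Dock1 (-0.23 ± 0.06), an exchange factor for Rac. Of 10 genes of the Slit and Robo pathway, another guidance system, 1 was lower, the Slit receptor Robo2 (-0.36 ± 0.08). Its ligand gene Slit2 had -0.26 ± 0.11 and was not called. Of 14 class 3 semaphorins, neuropilins and plexins, the secreted ligand Sema3c was higher (0.31 ± 0.08), and the plexin receptors Plxnd1 (-0.28 ± 0.06) and Plxna4 (-0.26 ± 0.06) were lower. Of 20 ephrins and Eph receptors, 1 was lower, the ligand Efna5 (-0.20 ± 0.05). These genes were named after their values were seen, and list medians lay between -0.07 and 0.01.

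In brain, where netrins guide axons during development, no member was called after hypoxia. Unc5c ranged from 8.03 over a median of 8.55 to 9.0 in hypoxia brains, against 8.10 over 8.54 to 8.85 in normoxia brains. Ntn4 ranged from 6.37 over 6.77 to 7.30 in hypoxia brains, against 6.57 over 6.74 to 7.21 in normoxia brains. In both genes the groups lay on top of each other. The hypoxia minus normoxia difference was 0.00 ± 0.08 for Unc5c (95% interval -0.16 to 0.15) and -0.02 ± 0.06 for Ntn4 (-0.15 to 0.10). The difference from lung was not tested, because the lung values chose the family. In the limma fit 0 of 8 members were called, all with an adjusted p of 1 and none at an unadjusted p under 0.05, and 0.0853% of all genes were called (17 genes, and 13 with the array of eye profile included).

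**Figure D2:**
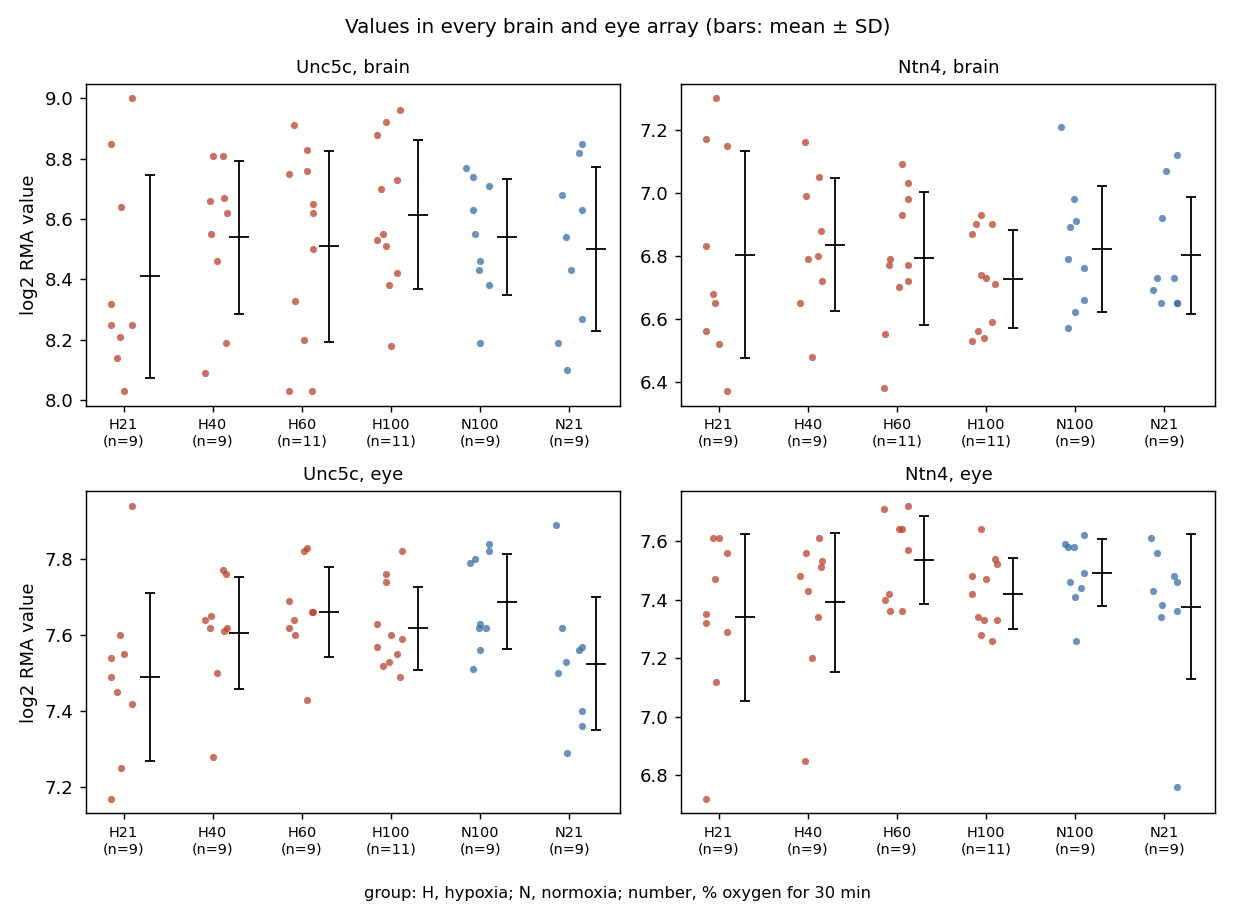
Log2 RMA values (vertical axis) of Unc5c and Ntn4 in every brain and eye array that was used, by group, with hypoxia groups in red, normoxia groups in blue and bars for the group mean ± SD. Hypoxia and normoxia groups overlap in all 4 panels, with hypoxia minus normoxia differences between -0.02 and 0.00.

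The receptor Dcc ranged from 7.92 over a median of 8.61 to 9.0 in hypoxia brains, against 8.14 over 8.51 to 8.91 in normoxia brains (0.06 ± 0.07). Neo1 ranged from 9.42 over 10.34 to 10.73 in hypoxia brains, against 9.91 over 10.33 to 10.59 in normoxia brains (0.03 ± 0.07). Unc5d, a receptor expressed by cortical neurons, ranged from 7.36 over 8.28 to 8.78 in hypoxia brains, against 7.33 over 8.36 to 8.73 in normoxia brains (-0.07 ± 0.09). The remaining brain differences lay between -0.05 ± 0.06 for Unc5b and -0.01 ± 0.05 for Unc5a, and each interval contained 0. With more oxygen during reoxygenation, Dcc had 8.46 ± 0.25 in H21, 8.59 ± 0.37 in H40, 8.60 ± 0.27 in H60 and 8.67 ± 0.21 in H100 (SD). The Dcc slope from 21 to 100% oxygen was 0.19 ± 0.11 (95% interval -0.02 to 0.40), and no member was called for the slope (lowest adjusted p = 0.75). No gene at all (0%) was called for the slope, for H100 minus H21, for N100 minus N21, for the interaction or for any hypoxia group against N21, and 0.01% (2 genes, and 0 with the array of eye profile included) for H100 minus N100, where 0 members were called.

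In eye, too, 0 of 8 members were called by limma after hypoxia, with 0 at an unadjusted p under 0.05, and 0.0853% of all genes were called (17 genes, and 8 with the array of lung profile included). Unc5c ranged from 7.17 over a median of 7.61 to 7.94 in hypoxia eyes, against 7.29 over 7.60 to 7.89 in normoxia eyes. Its difference was -0.01 ± 0.05 (95% interval -0.10 to 0.08), the narrowest interval for this gene in the 2 tissues tested. Ntn4 gave -0.01 ± 0.06 (-0.13 to 0.10), Dcc 0.05 ± 0.08 (-0.10 to 0.21), Neo1 -0.01 ± 0.05 (-0.12 to 0.10) and Ntn1 -0.07 ± 0.06 (-0.18 to 0.04). By its brighter probe set Unc5d had the largest difference of the family in eye, -0.12 ± 0.07 (-0.26 to 0.02). By that probe set 26 of 38 hypoxia eyes lay below its normoxia median. The other probe set of Unc5d gave -0.06 ± 0.08 in eye, which is not the largest of the family.

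Each of the 4 Unc5 receptors had its highest group mean in eye in N100, the animals given 100% oxygen without hypoxia. Unc5b ranged from 6.62 over a median of 6.86 to 7.03 in N100 eyes, against 6.27 over 6.63 to 6.84 in N21 eyes. Unc5d ranged from 6.55 over 6.88 to 7.0 in N100 eyes, against 6.20 over 6.53 to 6.80 in N21 eyes. Unc5c ranged from 7.51 over 7.63 to 7.84 in N100 eyes, against 7.29 over 7.53 to 7.89 in N21 eyes. The N100 median exceeded the N21 median in each, and the groups overlapped. N100 minus N21 was 0.23 ± 0.09 for Unc5b (95% interval 0.05 to 0.41), 0.28 ± 0.12 for Unc5d (0.05 to 0.51), 0.16 ± 0.07 for Unc5c (0.01 to 0.31) and 0.14 ± 0.08 for Unc5a (-0.02 to 0.30). The first 3 had an unadjusted p under 0.05, against 3.9% of all genes, but no gene passed after adjustment over all genes (0% called, adjusted p = 0.94 for these 4 in the limma fit). The ligand Ntn1 also had its highest eye group mean there, 7.59 in N100 against 7.56 in N21. Marker lists of several cell types also had their highest group mean in N100 eyes. The mean over 6 photoreceptor markers was 10.06 ± 0.42 in N100, against 9.91 ± 0.35 in N21, and lay between 9.78 and 9.87 in the hypoxia groups. For 7 neuronal markers it was 9.68 ± 0.11 in N100, against 9.60 ± 0.13 in N21 (9.56 to 9.61 in the hypoxia groups). For 6 skeletal muscle markers it was 11.44 ± 0.20 in N100, against 11.40 ± 0.24 in N21 (11.04 to 11.27 in the hypoxia groups). The part of these cells in the Unc5 values was not tested.

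**Figure D3:**
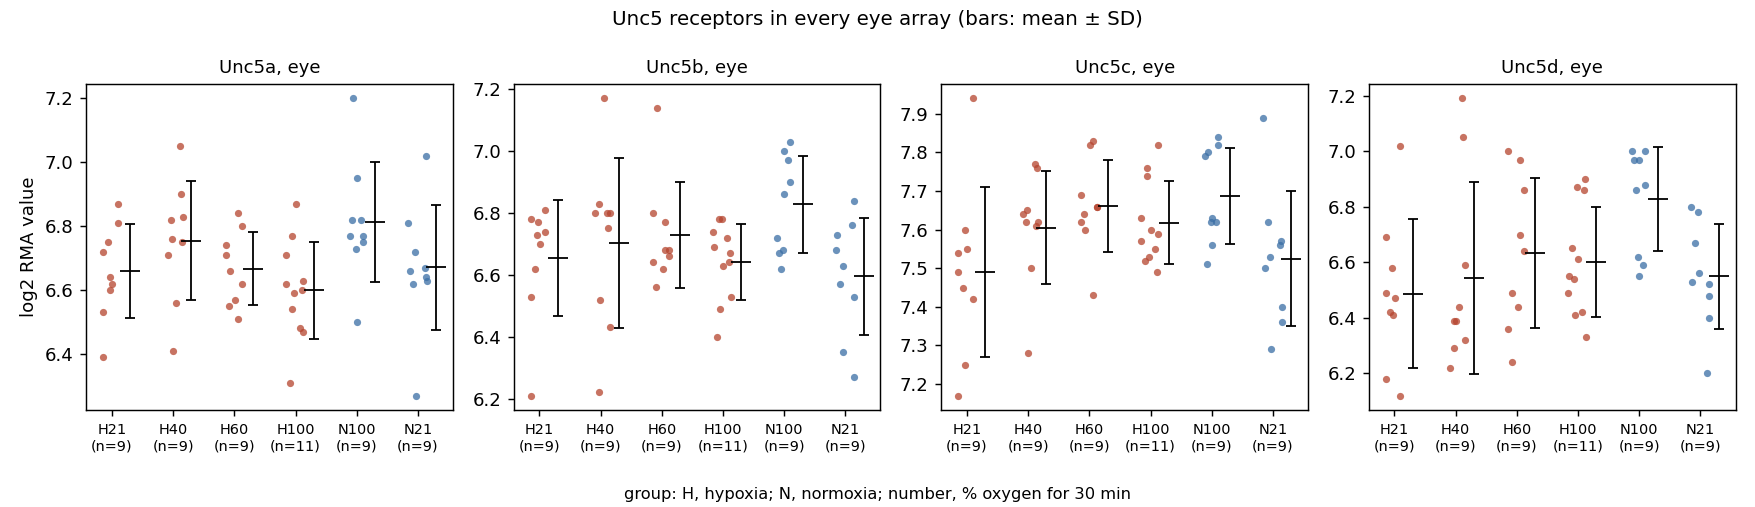
Log2 RMA values (vertical axis) of the 4 Unc5 receptors in every eye array that was used, by group, with hypoxia groups in red, normoxia groups in blue and bars for the group mean ± SD. The N100 mean is the highest of the 6 group means in each panel, and none of the differences from it passed the test over all genes.

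H100 eyes had the same oxygen after hypoxia. There Unc5a ranged from 6.31 over 6.60 to 6.87 in H100 eyes, against 6.50 over 6.77 to 7.20 in N100 eyes. H100 minus N100 was -0.21 ± 0.08 for Unc5a, -0.19 ± 0.09 for Unc5b and -0.22 ± 0.11 for Unc5d, each with an unadjusted p under 0.05, as had 8.70% of all genes. None passed the adjustment in limma (lowest adjusted p = 0.45), and 0% of all genes were called. With array quality weights 432 genes were called in this comparison, with no member among them. This comparison shares the N100 eyes with N100 minus N21. The interaction itself, the effect of 100% oxygen after hypoxia minus its effect without, was -0.25 ± 0.12 for Unc5b (95% interval -0.49 to 0.00) and -0.20 ± 0.11 for Unc5a (-0.42 to 0.02), with adjusted p of 1 and 0% of genes called. For Dcc, H60 minus N21 was 0.26 ± 0.13 (adjusted p = 0.90, 0% of genes called), the only member at an unadjusted p under 0.05 there. No member was called for H21 minus N21 (0.00502% of all genes, 1 gene, and 0 genes with the array of lung profile included), H40 minus N21, H100 minus N21, H100 minus H21 or the slope (0% each).

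The change after hypoxia was compared between eye and brain directly, in 1 fit of the lung, brain and eye arrays. The error of each difference thus includes the spread among lungs. Eye and brain arrays can come from the same animals, but no label ties them, so the fit treated them as independent. For Unc5d, the probe set used in eye was not that used in brain. Eye minus brain differences of that change ran from -0.06 ± 0.07 for Unc5a to 0.02 ± 0.09 for Unc5b, with -0.01 ± 0.12 for Unc5c and 0.01 ± 0.09 for Ntn4. No member was called (adjusted p of 1 for all 8), and 0.01% of all genes were. Likewise 0 genes of the 6 pathway and guidance lists were called in brain or eye for hypoxia minus normoxia.

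**Figure D4:**
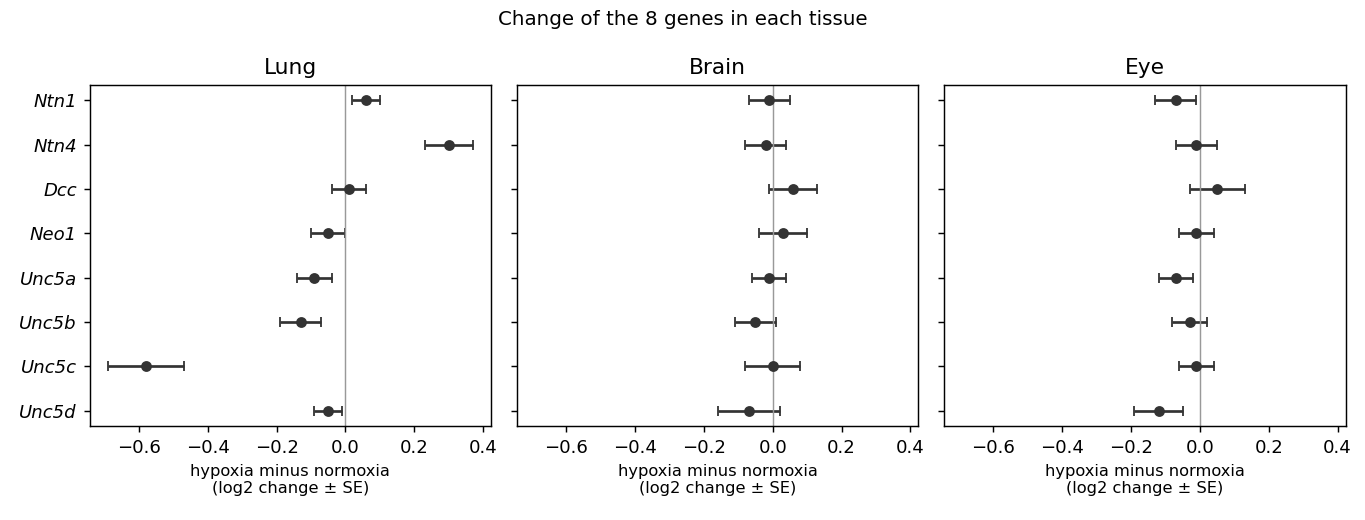
Hypoxia minus normoxia difference (horizontal axis, log2, point with SE) of the 8 genes in lung, brain and eye. In lung Unc5c lies at -0.58 and Ntn4 at 0.30, while in brain and eye every point lies between -0.12 and 0.06.

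Animals of the same group differed from each other in these genes, and this variation does not use the hypoxia contrast. The within-group SD of Unc5c was 0.38 in lung, larger than that of 95% of genes, 0.26 in brain (76.4%) and 0.14 in eye (8.3%). Unc5d was the most variable member in brain (0.33, above 92.3% of genes). Ntn4 had 0.25 in lung, 0.21 in brain and 0.19 in eye. By this measure Unc5c varied most in lung between animals given the same treatment.

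Correlations between members were computed over arrays after subtracting each group's mean, for 28 pairs per tissue, with permutation within groups and Benjamini-Hochberg adjustment over the 28. Arrays share their normalization and differ in RNA quality and tissue composition, so such a correlation is a description. The share of other gene pairs that would pass was not computed in any tissue. The counts of pairs are therefore not read as a trait of this family. In lung 3 pairs passed in both Pearson's r and Spearman's rho. Unc5b and Unc5c moved together (n = 60, r = 0.50, permutation p = 5e-05, adjusted 0.0007; rho = 0.56, p = 2e-05, adjusted 0.00056). Without the 2 lungs farthest from the median r was 0.47, within the first run of records 0.60 and within the later runs 0.52. Unc5a and Unc5b also moved together (r = 0.53, permutation p = 4e-05, adjusted 0.0007; rho = 0.52, p = 7e-05, adjusted 0.00098). Their r was 0.48 without 2 lungs, 0.41 in the first run and 0.62 in the later runs. With the lung-labelled array of brain profile included r was -0.05, so the relation rests on leaving out that array.

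Unc5c and Ntn4 moved in opposite directions between lungs of the same group (n = 60, r = -0.45, permutation p = 0.00033, adjusted 0.0031; rho = -0.39, p = 0.0043, adjusted 0.040). Without the 2 lungs farthest from the median r was -0.32, in the first run -0.65 and in the later runs -0.26. Lungs H100 replicate 6 and H40 replicate 2 had the highest Unc5c of their groups (9.33 and 9.16) together with the lowest Ntn4 (7.51 in both). Within groups the 2 genes thus varied against each other, less strongly without the 2 lungs farthest from the median and in the later runs.

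**Figure D5:**
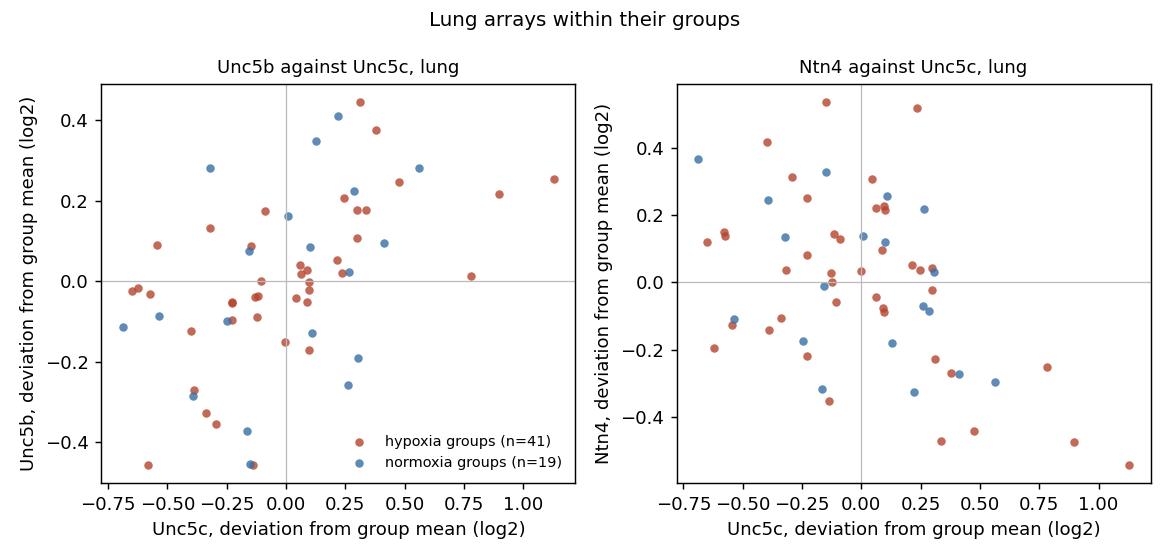
Deviation of Unc5b (left) and Ntn4 (right) from the group mean (vertical axes, log2) against that of Unc5c (horizontal axes, log2), 1 point per lung, with 41 hypoxia lungs in red and 19 normoxia lungs in blue. Unc5b rises with Unc5c (r = 0.50) and Ntn4 falls with it (r = -0.45), with a wide scatter in both.

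In brain 9 of 28 pairs passed, 7 positive and 2 negative, with no share over other gene pairs to set beside this count. Dcc and Neo1, the receptors that can attract, had the highest correlation (n = 58, r = 0.63, rho = 0.65, both with permutation p = 1e-05, the smallest these permutations can give, adjusted 0.00028). It was 0.57 without 2 brains, 0.58 in the first run and 0.71 in the later runs. Unc5c moved with Dcc (r = 0.53, permutation p = 3e-05, adjusted 0.00042; rho = 0.51, p = 0.00011, adjusted 0.0015), with r of 0.55 without 2 brains and 0.47 in each set of runs. Unc5b and Unc5c had r = 0.52 (permutation p = 6e-05, adjusted 0.00056; rho = 0.48, p = 0.00023, adjusted 0.0021), 0.46 without 2 brains, 0.68 in the first run and 0.33 in the later runs. Unc5c and Ntn4, opposed in lung, had r = 0.36 in brain (permutation p = 0.012, adjusted 0.032; rho = 0.36, p = 0.0083, adjusted 0.026), 0.38 without 2 brains, 0.48 in the first run and -0.11 in the later runs. The relation of that pair in brain therefore does not hold within both sets of runs, and its difference from lung was not tested.

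In eye 2 of 28 pairs passed, against 7 with the array of lung profile included and 1 after quantile normalization again. Dcc and Neo1 again had the highest correlation (n = 56, r = 0.67, rho = 0.66, both with permutation p = 1e-05, adjusted 0.00028), with 0.63 without 2 eyes, 0.72 in the first run and 0.55 in the later runs. Unc5b and Ntn1 had r = 0.40 (permutation p = 0.0047, adjusted 0.044; rho = 0.44, p = 0.0013, adjusted 0.012), 0.41 without 2 eyes, 0.67 in the first run and -0.15 in the later runs, so it does not hold within the later runs. In lung Dcc and Neo1 had r = -0.12 (permutation p = 0.36, adjusted 0.56; rho = -0.19, p = 0.15, adjusted 0.33). The Dcc values in lung were low on the array's scale (median 5.14, where the median array value was 6.25 and the mean over 6 photoreceptor markers had a median of 4.96), which limits what a correlation with Dcc can show there.

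The genes whose values were most like those of a member, by Pearson's r over arrays after subtracting group means, are given with no test. Symbols of predicted or unnamed genes (such as Gm, LOC or Rik symbols), microRNAs and small nucleolar RNAs were left out of this ranking. For Unc5c in 60 lungs these were Adam12, a metalloprotease (r = 0.81, rho = 0.75), Plekha6 (r = 0.76, rho = 0.75) and Rspo2, a secreted activator of Wnt signalling (r = 0.74, rho = 0.71). For Unc5b they were the Wnt receptor Fzd1 (r = 0.77, rho = 0.74), Plvap, a protein of endothelial diaphragms (r = 0.76, rho = 0.75), and Nes, the filament protein nestin (r = 0.75, rho = 0.75). For Ntn4 they were Hsd11b1, an enzyme that regenerates active glucocorticoid (r = 0.77, rho = 0.80), Calcoco1 (r = 0.75, rho = 0.75) and Slc43a3 (r = 0.74, rho = 0.70). These 3 sets shared no gene, from which nothing is read, as each holds only 3 genes.

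For Unc5c in 58 brains the nearest genes were the kinase Map3k1 (r = 0.87, rho = 0.87), the transcription factor Zic2 (r = 0.84, rho = 0.85) and Mki67, a marker of dividing cells (r = 0.83, rho = 0.84). In 56 eyes they were the nuclear receptor Rora (r = 0.71, rho = 0.69), Scg2 (r = 0.71, rho = 0.66) and the kinase Snrk (r = 0.69, rho = 0.62). For Unc5d in eye they were Cacna1f, a calcium channel of photoreceptors (r = 0.87, rho = 0.86), Gpr179 (r = 0.86, rho = 0.85) and Snap91 (r = 0.85, rho = 0.83). The 3 sets for Unc5c shared no gene between the tissues, from which nothing is read, as each holds only 3 genes.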

How the data were processed

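Per the labels, total RNA (10 ng per array) was biotin-labelled for Affymetrix arrays. The authors deposited log2 values made by RMA, per the submitters' processing notes; its version is not given in the sources used here. RMA corrects background, equalizes array distributions and summarizes probes, so a shift common to all genes cannot be seen. The platform annotation pairs 21640 of 34760 probe sets with a single gene symbol, 1321 with more than 1 and 11799 with no symbol; for 21553 the RefSeq gene list held the Entrez identifier and gave the current symbol.

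All 6 groups of a tissue were fitted together with limma 3.58.1 (R 4.3.3 and its package data.table, version 1.17.8; lmFit and eBayes, two-sided) over 19937 genes, calling Benjamini-Hochberg adjusted p under 0.05; ± is SE unless SD is stated. The number of arrays limits the precision. Data were simulated per tissue with independent normal noise, with 100 of 19937 genes changed by 0.3 (log2) and another 100 by 0.6. Of those changed by 0.3, hypoxia minus normoxia was called for 66 (lung), 72 (brain) and 70 (eye). Of those changed by 0.6 it was called for 99, 99 and 100. In brain and eye only 17 genes were called each. Adjustment is stricter where fewer genes change, so the simulated shares can overstate what was recoverable there. Correlations used 100000 permutations. Members, lists and comparisons were chosen with earlier results of these data known. Named were all 8 members, up to 4 called list genes per tissue outside lung, and the 3 genes most like a member; other names were chosen after their values were seen. Alternatives were all arrays as labelled, array quality weights, the dimmest 40% of genes left out, repeated quantile normalization, the replicate number or the run of sample records as a block, the first run alone, a sex covariate, only the groups named, every probe set, the mean of Unc5d probe sets, each array left out and, added later, the later runs alone.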

Additional observations from a re-analysis of the deposited data

Results flagged for a closer look

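In 104 groups of 4 to 10 arrays (8 genes, 3 tissues), 10 (9.62%) held an array farther from its neighbours than Dixon's 95% limit for a single stray value, where chance gives about 1 in 20. In lung, Neo1 was low in H21 replicate 1 (9.19, next 9.77), Ntn4 in H40 replicate 2 (7.51, next 7.92) and Ntn1 in N21 replicate 8 (7.46, next 7.68). In brain, Neo1 was low in H21 replicate 1 (9.96, next 10.25), Unc5a in N21 replicate 1 (7.23, next 7.60) and Unc5d in N21 replicate 3 (7.33, next 8.19). In eye, Unc5b was low in H21 replicate 9 (6.21, next 6.53) and high in H60 replicate 4 (7.14, next 6.80), Neo1 was high in H40 replicate 5 (9.82, next 9.56), and Ntn4 was low in N21 replicate 7 (6.76, next 7.34). The cause of these single values was not tested.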

How the results depend on the processing

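In lung, 2 members were called for hypoxia minus normoxia, Unc5c and Ntn4. The count was 1 with all arrays as labelled (Unc5c), 1 in the later runs of records (Ntn4) and 0 in the first run, where fewer arrays entered and 23 genes in all were called; Unc5c kept its sign in each (-0.60 to -0.52), as did Ntn4 (0.25 to 0.41). These lung values chose the family, so the counts describe the settings and show no stability of a test. With each of 60 lungs left out in turn, the Unc5c difference lay between -0.62 and -0.54 and that of Ntn4 between 0.28 and 0.33, and the count stayed at 2. With array quality weights 1 member (Unc5c) was called for H21 minus N21 and 1 for H100 minus N100, and with the run as a block 1 (Unc5c) for H21 minus N21, against 0 in the fit reported; without H100 replicate 6 the count was 1 in both comparisons, and without N21 replicate 2 it was 1 for H21 minus N21. Over all genes the lung count of 331 became 95 with all arrays as labelled, 834 with quality weights, 504 with the run as a block and 38 in the later runs. The eye count of 17 became 53 with quality weights and 0 in the first run. The brain count of 17 became 41 with quality weights and 0 in the later runs. For H100 minus N100, quality weights gave 432 genes in eye (0 in the fit reported) and 17 in brain (2 in the fit reported). In brain and eye 0 members were called under every alternative run, and 0 without each array in turn. Of within-group correlations, Unc5a with Unc5b in lung became -0.05 and Unc5b with Unc5d in brain 0.05 (against -0.35) with all arrays as labelled. The eye count of 2 pairs became 7 with all arrays as labelled and 1 after quantile normalization again. In 8 further cases a correlation of a pair missed the threshold under an alternative with its sign kept, 5 of them in the first run alone. The cause of these shifts was not tested.

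Replicate numbers are shared by the groups, and same-numbered arrays deviated together only in part. The median r of same-numbered pairs was 0.13 for lungs, 0.13 for brains and 0.03 for eyes, against -0.02, -0.02 and -0.03 for other pairs. It was over 0.1 in 77 of 139 lung, 73 of 134 brain and 52 of 131 eye pairs, and 12 of 60 lungs, 12 of 58 brains and 15 of 56 eyes correlated best with their own number. Same-numbered pairs thus had the higher median r in each tissue, and how many best matches arise by chance was not computed. No label ties the numbers, so the fit reported did not take them as pairs. In the fit with a replicate block, 2 members were called in lung and 0 in brain and eye for hypoxia minus normoxia, Unc5c stood at -0.58 and Ntn4 at 0.30, and the lung count over all genes was 417. The members sit on 9 probe sets, signal is not an absolute amount, and the labels give no protein or cell-level measure.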
